A study of Bos taurus with 8 samples.

Results

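Platelets are the small cells without a nucleus that megakaryocytes shed into blood and that start clotting, and they keep a stock of megakaryocyte RNA. TUBB1 encodes the beta-tubulin of the platelet's marginal microtubule ring, and MPIG6B encodes an inhibitory receptor of megakaryocytes and platelets, so an mRNA of either is seldom made by a lymphocyte or a monocyte. In blood, activated platelets are known to bind monocytes, neutrophils and lymphocytes, and a droplet assay can read the RNA of a platelet together with that of another cell under 1 barcode.

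The barcodes described here are those with at least 200 detected genes and at least 1 unique molecular identifier (UMI, a tag that counts 1 captured mRNA molecule) of TUBB1 or MPIG6B. They are called platelet-UMI barcodes below, and all further barcodes with at least 200 genes are called other barcodes. Of 30732 barcodes, 1889 met the rule, or 6.15% (exact Clopper-Pearson 95% interval 5.88 to 6.42). They were chosen by their own UMI counts of TUBB1 and MPIG6B, so the levels of these 2 genes are given as a description and support nothing.

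Blood from the tail vein of 4 female lactating Holstein cattle aged 2 years was pooled and divided into 4 parts. One part had no lipopolysaccharide (LPS, a wall component of Gram-negative bacteria), and the others had 2 µg/ml LPS at 37 °C for 2 h, 4 h or 8 h. Mononuclear cells were then isolated by centrifugation, and each part gave 1 10x Genomics 3′ scRNA-seq library. With 1 library of 1 pool per treatment there is no replicate, so no p-value is given, every interval covers counting error only, and the treatment cannot be told apart from the library. The sources used here give no incubation time for the untreated part. Where 4 values follow each other, they are in the order no LPS, 2 h, 4 h and 8 h of LPS.

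The libraries held 30902952 to 63770426 UMIs, and 3857 to 10417 barcodes had at least 200 genes. Any pair of libraries shared 8 to 24 barcode sequences, and no pair shared a platelet-UMI barcode. CD14, a monocyte receptor gene, had a UMI in 18.2% of the other barcodes without LPS and in 5.60% of them at 4 h. The libraries thus also differ in how often this marker was read. Fewer monocytes and less CD14 RNA per monocyte cannot be told apart in this share. Doublets were neither called nor removed and free RNA was not estimated, and the number of markers per barcode is given instead.

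Platelet-UMI barcodes numbered 561, 661, 333 and 334. Their share was 6.61% (6.09 to 7.16), 6.35% (5.88 to 6.83), 4.18% (3.75 to 4.64) and 8.66% (7.79 to 9.59). The first 2 shares overlapped in their intervals, the 4 h share lay below them and the 8 h share above them.

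Most of these barcodes held a single molecule. Exactly 1 UMI of the gene pair was found in 418, 505, 245 and 231 of them, or 69.2 to 76.4%. At least 5 UMIs were found in 28, 15, 11 and 13. The highest counts in 1 barcode were 26, 23, 14 and 8.

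The 2 genes occurred together. MPIG6B was found in 21.0%, 18.2%, 24.2% and 24.1% of the barcodes with a TUBB1 UMI, and in 2.11%, 2.17%, 1.32% and 2.57% of the barcodes without one. TUBB1 was the more frequent of the pair, with 390, 445, 231 and 241 barcodes against 253, 297, 158 and 151 for MPIG6B.

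Platelet-UMI barcodes were deeper than the others. Their median depth was 5644, 4898, 7260 and 6793 UMIs, against 4129, 4146, 4887 and 4950 UMIs in the other barcodes. More than 3000 genes were detected in 23.9%, 15.4%, 27.9% and 30.2% of them, against 4.19 to 9.03% of the others. Because a deeper barcode is more likely to show any gene once, shares are also given after each barcode was thinned at random to 1000 UMIs. Barcodes with fewer UMIs were left out of these shares. They were 29, 29, 8 and 30 platelet-UMI barcodes and 514, 431, 307 and 371 others. At 1000 UMIs the share with a platelet UMI was 1.44%, 1.54%, 0.81% and 1.94%. The 4 h interval (0.62 to 1.04) again lay below the other 3, while the 8 h interval (1.51 to 2.46) overlapped those of the library without LPS (1.19 to 1.72) and of 2 h (1.30 to 1.80).

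CD14 was the leukocyte marker that went with platelet UMIs at full depth. It was found in 39.4% (35.3 to 43.6) of platelet-UMI barcodes without LPS and in 21.8% (18.7 to 25.1), 23.1% (18.7 to 28.0) and 35.9% (30.8 to 41.3) of them with LPS, against 18.2%, 7.26%, 5.60% and 14.9% of the other barcodes. The intervals did not overlap in any of the 4 libraries. With the marker read at 1000 UMIs but the platelet UMI still read at full depth, the shares were 29.7%, 11.6%, 16.6% and 22.4% against 12.7%, 4.00%, 3.08% and 7.65%, again apart in each library. Which barcodes show a platelet UMI also depends on depth, so both were then read at 1000 UMIs, which left 114, 153, 62 and 67 barcodes with a platelet UMI. The CD14 shares were then 24.6% (17.0 to 33.5), 4.58% (1.86 to 9.20), 4.84% (1.01 to 13.5) and 11.9% (5.30 to 22.2) against 13.7%, 4.48%, 3.65% and 8.88%. They were apart only without LPS, and with LPS no excess of CD14 was detectable at equal depth. Within the study's limits of at most 3000 genes and under 20% mitochondrial UMIs, with all UMIs, CD14 was in 25.8%, 13%, 9.58% and 20.3% of platelet-UMI barcodes against 15.2%, 5.97%, 3.79% and 12.4% of the others, apart in each library.

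The lymphocyte markers were CD3E and MS4A1. CD3E, a subunit of the T cell receptor complex, was found in 49.7%, 53.9%, 58.6% and 60.2% of platelet-UMI barcodes and in 50.8%, 55.0%, 56.6% and 54.6% of the others, with intervals that overlapped in each library. With the marker alone read at 1000 UMIs its shares were 25.0%, 27.7%, 22.8% and 25.3% against 28.8%, 28.9%, 28.9% and 31.8%, and the intervals were apart only at 4 h, with the platelet-UMI barcodes lower. With the platelet UMI read at that depth too they were 29.8%, 37.3%, 24.2% and 29.9% against 28.6%, 28.7%, 28.7% and 31.2%, with overlap in each library.

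MS4A1, which encodes the B cell protein CD20, was found in 27.1%, 29.2%, 28.2% and 40.4% of platelet-UMI barcodes and in 28.2%, 29.9%, 31.6% and 31.7% of the others. Only the 8 h library had the marker more often with a platelet UMI beyond the intervals. With the marker alone read at 1000 UMIs the shares were 13.5%, 13.6%, 9.85% and 17.1% against 17.5%, 19.0%, 17.7% and 17.6%, lower beyond the intervals at 2 h and 4 h. With both read at that depth they were 14.0%, 12.4%, 16.1% and 19.4% against 17.3%, 18.7%, 17.4% and 17.5%, with overlap in each library.

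NCR1, a receptor gene of natural killer cells, was rare. Its UMI was present in 1.78%, 1.82%, 5.11% and 3.59% of platelet-UMI barcodes and in 1.43%, 1.54%, 2.07% and 1.62% of the others, with intervals that were apart only at 4 h. With the marker alone read at 1000 UMIs it was found in 0 of 532 platelet-UMI barcodes without LPS, which allows a share of up to 0.564% when 3 counts of the total are taken as the limit, or 0.691% as the exact 95% upper bound. At 8 h it was in 0 of 304, with limits of 0.987% and 1.21% by the same reckoning. At 4 h, 3 of 325 had it, so the difference was not detectable.

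**Figure D1:**
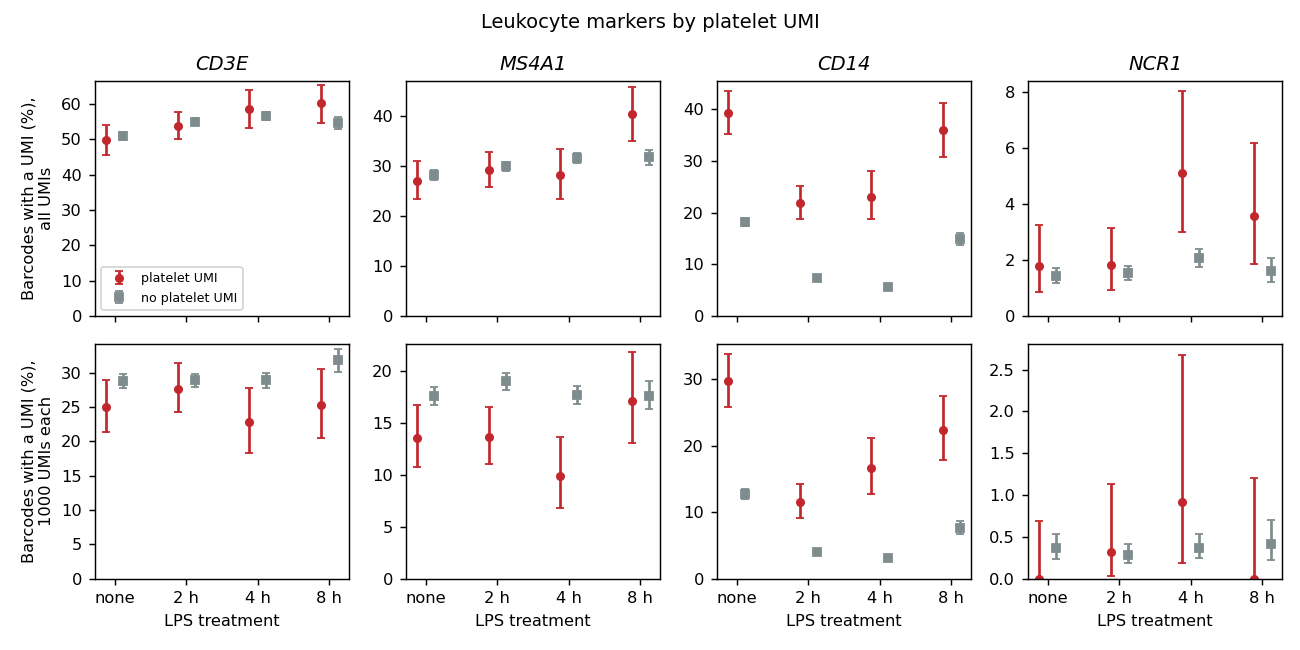
Share of barcodes with a UMI of CD3E, MS4A1, CD14 or NCR1 (%) by LPS treatment, for barcodes with a platelet UMI (circles) and without one (squares). The upper row uses all UMIs, the lower row reads the marker at 1000 UMIs per barcode while the platelet UMI is still read at full depth, and bars are exact 95% binomial intervals. CD14 stands higher with a platelet UMI in all 8 pairs of points, at 39.4% against 18.2% without LPS.

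At full depth, barcodes with 2 or more of the 4 markers were also more frequent among platelet-UMI barcodes. They made up 24.2% (20.8 to 28.0), 15.6% (12.9 to 18.6), 21.3% (17.0 to 26.1) and 35.9% (30.8 to 41.3), against 11.7%, 7.65%, 7.95% and 15.5% of the others. At 8 h, 65 of the 334 held CD3E and MS4A1 and 73 held CD3E and CD14. With the markers alone read at 1000 UMIs the shares with 2 or more were 4.89%, 1.74%, 2.77% and 5.92% against 2.29%, 1.16%, 1.00% and 3.55%, with intervals that overlapped at 2 h and 8 h. With the platelet UMI read at that depth too, 4 of 114, 2 of 153, 0 of 62 and 7 of 67 had 2 or more. Of barcodes with 2 or more markers at that depth, 2.04% (0.56 to 5.14), 1.68% (0.20 to 5.94), 0% (0 to 4.40) and 5.38% (2.19 to 10.8) held a platelet UMI. Each interval overlapped that of barcodes with none of the 4, at 1.19%, 1.46%, 0.84% and 2.14%. At 8 h the share stood above that class on only 7 barcodes, so the overlap does not exclude an excess there. The part of doublets in these shares was not tested.

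Seen from the leukocyte side, barcodes with CD14 as their only marker held a platelet UMI in 11% (9.0 to 13.2), 15.5% (12.2 to 19.3), 12.5% (8.0 to 18.3) and 11.1% (7.1 to 16.3) of cases. Barcodes with CD3E alone held one in 4.93%, 5.62%, 3.46% and 6.55%, and barcodes with MS4A1 alone in 4.74%, 4.82%, 2.55% and 5.98%. B cells are not known to transcribe TUBB1, so the MS4A1-only share serves as a background level, and the CD3E-only share did not exceed it by more than the intervals. The CD14-only share did so in the first 3 libraries, and its interval overlapped at 8 h. Median depth was 9869, 11404, 6071 and 1769 UMIs for CD14 alone, 4103, 4131, 4824 and 5339 for CD3E alone and 3940, 4362, 5292 and 6013 for MS4A1 alone.

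With markers and platelet UMIs both read at 1000 UMIs per barcode, the classes came close together. The CD14-only share was 2.50% (1.61 to 3.70), 1.56% (0.57 to 3.36), 1.27% (0.26 to 3.65) and 0.88% (0.11 to 3.16). The CD3E-only share was 1.39%, 1.97%, 0.70% and 1.61%, and the MS4A1-only share was 1.28%, 1.03%, 0.78% and 1.57%. Every interval of the CD14-only class overlapped those of the lymphocyte classes, so a difference between these classes was not detectable at equal depth. All barcodes with CD14 at that depth, whatever their other markers, held a platelet UMI in 2.54% (1.69 to 3.65) of cases without LPS. Those without CD14 did so in 1.26% (1.01 to 1.55), which was apart. With LPS the shares were 1.57%, 1.07% and 2.59% against 1.54%, 0.80% and 1.87%, with overlap at each time. The drop at 4 h was present in the CD3E-only and MS4A1-only classes with all UMIs. At 1000 UMIs the 4 h intervals of both classes overlapped those without LPS. The CD14-only class showed no drop with all UMIs, at 12.5% (8.0 to 18.3), or 22 of 176 barcodes, beside 11% without LPS. Its 4 h interval was wide.

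**Figure D2:**
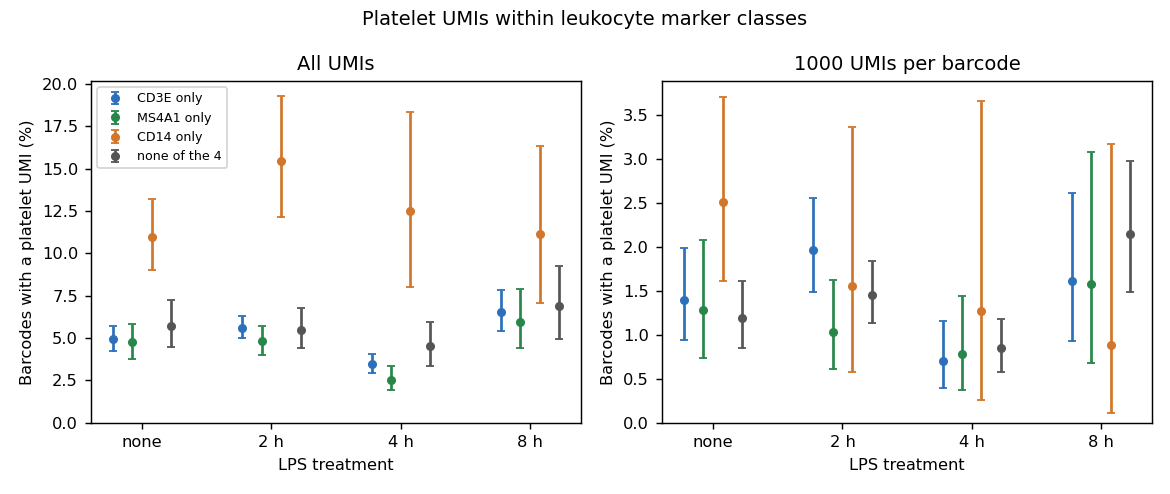
Share of barcodes with a platelet UMI (%) by LPS treatment within barcodes that have only CD3E, only MS4A1, only CD14 or none of the 4 markers. The left panel uses all UMIs and the right panel 1000 UMIs per barcode for markers and platelet UMIs alike, and bars are exact 95% binomial intervals. CD14-only barcodes lie highest on the left, at 11 to 15.5%, and on the right their intervals overlap those of the lymphocyte classes.

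None of the 4 markers was found in 66, 83, 47 and 40 platelet-UMI barcodes, or 11.8%, 12.6%, 14.1% and 12%. Within them a few small barcodes stood out. Of those that also lacked PTPRC, the pan-leukocyte gene of CD45, and all 39 listed leukocyte markers, 8, 7, 4 and 4 carried a platelet UMI, with median depths of 818, 753, 618 and 703 UMIs. In the same barcodes HBB, the adult beta-globin gene, reached 25420, 23343, 33453 and 2436 CPM (summed UMIs of the gene per 1000000 summed UMIs), against 128, 153, 61.7 and 70.0 CPM in the marker-free barcodes with no platelet UMI. The 8 h value includes 1 barcode with 2766 genes, and the other libraries had at most 680 genes in such a barcode.

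The barcode with the most platelet UMIs was of this kind. It came from the library without LPS and had 2181 UMIs over 549 genes, with 21 UMIs of TUBB1, 5 of MPIG6B, 115 of HBB, 133 of the listed platelet genes and none of the 4 leukocyte markers. At 2 h, barcodes of 753, 1237 and 615 UMIs with 15, 14 and 12 platelet UMIs had none of the 4 either. By contrast, 4 of the 5 leading barcodes at 8 h were very deep, at 86695 to 249515 UMIs, and carried markers of at least 2 classes.

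HBB went with platelet UMIs in every library. It was found in 46.2%, 44.5%, 48.3% and 46.4% of platelet-UMI barcodes, against 8.67%, 8.91%, 5.85% and 11.7% of the others. Its level was 145, 154, 125 and 83.5 CPM, against 19.5, 22.9, 12.5 and 22.3 CPM in the other barcodes. The ratios of these levels were 7.42 (6.82 to 8.08), 6.71 (6.19 to 7.27), 9.97 (8.94 to 11.1) and 3.74 (3.31 to 4.22), so the ratio at 8 h lay below the rest.

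The excess was also present at equal depth. With HBB alone read at 1000 UMIs, it was found in 13.5%, 13.8%, 14.5% and 11.2% of platelet-UMI barcodes and in 2.32%, 2.51%, 1.2% and 3.43% of the others. With HBB and the platelet UMI both read at 1000 UMIs, it was in 21.9% (14.7 to 30.6), 20.9% (14.8 to 28.2), 32.3% (20.9 to 45.3) and 23.9% (14.3 to 35.9), against 2.80%, 2.95%, 1.51% and 3.72%, apart in each library. Read the other way with all UMIs, 27.4%, 25.3%, 26.5% and 27.3% of barcodes with HBB had a platelet UMI, against 4.01%, 3.97%, 2.34% and 5.44% of those without HBB. With both at 1000 UMIs these shares were 10.2%, 9.97%, 14.8% and 11.3% against 1.16%, 1.26%, 0.56% and 1.54%. The 5 barcodes richest in HBB held 18.1 to 27.2% of the HBB UMIs of their library's platelet-UMI barcodes.

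The excess of HBB was present in every library within the CD3E-only and MS4A1-only classes, and in all but the 4 h library within the CD14-only class. The NCR1-only class held 2, 6, 4 and 1 platelet-UMI barcodes and is not given. Among CD3E-only barcodes HBB stood at 243, 320, 239 and 185 CPM with a platelet UMI and at 20.3, 24.5, 12.1 and 23.9 CPM without. These are ratios of 12 (10.05 to 14.2), 13.1 (11.6 to 14.8), 19.8 (16.6 to 23.5) and 7.74 (6.22 to 9.60). At 4 h, 31.0% of those UMIs came from 1 barcode.

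Among MS4A1-only barcodes the ratios of HBB were 7.53 (5.57 to 10.1), 5.51 (4.30 to 7.0), 15.7 (11.3 to 21.5) and 8.44 (5.67 to 12.5). Among CD14-only barcodes they were smaller, at 5.36 (4.30 to 6.68), 3.88 (2.88 to 5.22), 1.69 (0.83 to 3.31) and 3.99 (2.40 to 6.69), and the 4 h interval held 1. In barcodes with none of the 4 markers HBB reached 1089, 630, 330 and 329 CPM with a platelet UMI, against 31.1, 36.9, 18.8 and 58.2 CPM without one.

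HBB was higher the more platelet UMIs a barcode had, in each library and in the 4 together. Over the 4 it stood at 19.0 CPM in the 28843 barcodes with 0 platelet UMIs, just outside the rule, and at 69.6 CPM in the 1399 with 1, just inside it. It reached 121 CPM in the 277 with 2 and 274 CPM in the 213 with 3 or more, of which 91.1% had an HBB UMI. PDLIM1, a LIM-domain adaptor of actin fibres, followed the same order at 2.70, 11.3, 15.9 and 29.3 CPM. FHL1, another LIM-domain protein, did so at 2.33, 8.63, 11.5 and 26.6 CPM, though at 2 h it stood at 11.7 CPM with 1 platelet UMI and 11.2 CPM with 2.

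CD14 moved with them, at 276, 665, 877 and 1067 CPM, while CD3E went down from 323 to 207, 161 and 128 CPM. These sums mix libraries that differ in their CD14 level. At 2 h the last step was the other way for both, from 716 to 691 CPM for CD14 and from 138 to 144 CPM for CD3E. The share of barcodes with a CD3E UMI did not follow its CPM, at 54.2%, 52.7%, 58.1% and 62.4%. For CD14 the share was 10.8%, 25.8%, 38.6% and 44.1%. Median depth went from 4420 to 5227, 8068 and 11586 UMIs. The CPM levels and the depth change together across the same barcodes, and the part of depth and of monocyte RNA in each was not tested.

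**Figure D3:**
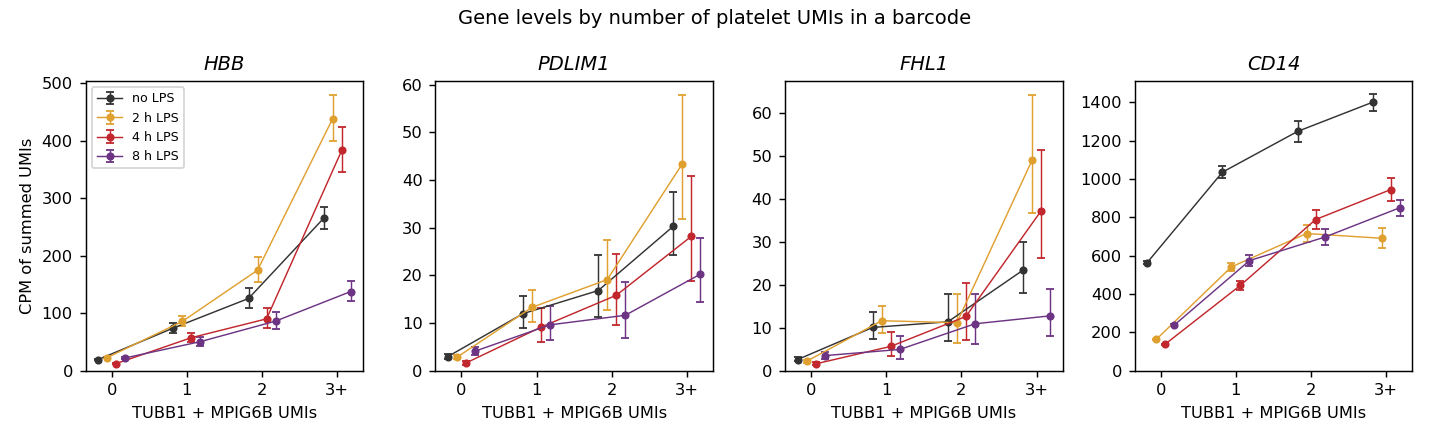
CPM of summed UMIs (vertical axes, linear) of HBB, PDLIM1, FHL1 and CD14 in barcodes with 0, 1, 2 or at least 3 UMIs of TUBB1 and MPIG6B, 1 line per library, with exact 95% Poisson intervals. Each line goes up from 0 to 1 UMI, and HBB is highest in barcodes with 3 or more, at 265, 438, 383 and 138 CPM.

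Several erythroid genes other than HBB had few UMIs. HBA, the alpha-globin gene, had 1, 4, 2 and 2 UMIs in all platelet-UMI barcodes of a library, against 1259, 1148, 676 and 547 UMIs of HBB. Whether the annotation holds the 3′ ends of the alpha-globin genes, which a 3′ assay reads, was not checked, so this low count is not read as low expression. SLC4A1, the band 3 anion exchanger, had 0 UMIs in platelet-UMI barcodes of all 4 libraries. AHSP, the chaperone of alpha-globin, had 3, 2, 1 and 1 UMIs. SLC4A1 and AHSP, both defining erythroid genes, were thus at or near 0.

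Of 24 listed red cell genes, 21 were named in the tables, and 12, 10, 10 and 10 had at least 20 UMIs in the comparison. Past 2-fold higher in platelet-UMI barcodes were 2, 3, 1 and 2 of them, against 2.58%, 5.35%, 6.64% and 5.17% of all genes tested. FECH, the last enzyme of haem synthesis, was past 2-fold lower at 2 h, where 1.15% of all genes tested were, and no listed gene was in the other libraries, where 2.35%, 2.13% and 1.65% of all genes were. The median log2 ratio of the list was -0.08, -0.16, -0.17 and 0.01, beside -0.20, -0.27, -0.18 and -0.17 for all genes tested. Its summed level was 1.21, 1.11, 1.17 and 1.12 times that of the other barcodes.

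CA2, the carbonic anhydrase II gene, was past 2-fold in 3 libraries, at 10.0, 11.8, 6.64 and 15.3 CPM against 3.65, 2.90, 3.06 and 1.64 CPM, and fell short at 4 h on the log2 scale, at 0.91. In CD3E-only barcodes it had 0, 0, 6 and 16 UMIs, most of them from a single barcode. ALAS2, the erythroid enzyme that starts haem synthesis, had only 10, 15, 7 and 11 UMIs in platelet-UMI barcodes, with ratios of 2.70 (1.14 to 6.0), 5.96 (2.82 to 12.4), 5.49 (1.83 to 15.1) and 4.54 (1.71 to 12.4). PRDX2, a peroxiredoxin abundant in red cells, had log2 ratios of -0.04, -0.25, -0.10 and -0.02, and GYPC, glycophorin C, -0.52, -0.51, -0.15 and -0.49. Neither was called.

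Platelet genes were considered next, in the groups of their products. A list of 65 genes, without TUBB1 and MPIG6B, had 62 named in the tables, and 46, 46, 46 and 44 entries had at least 20 UMIs. Past 2-fold higher in platelet-UMI barcodes were 14, 18, 18 and 11 of these, and past 2-fold lower 2, 1, 1 and 1. The shares of all genes called, given above, were 2.58 to 6.64% higher and 1.15 to 2.35% lower. Its median log2 ratio was 0.60, 0.63, 0.68 and 0.51, and its summed level was 1.91 (1.89 to 1.93), 2.16 (2.13 to 2.19), 2.22 (2.18 to 2.25) and 2.03 (2.00 to 2.06) times that of the other barcodes.

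The monocyte marker list moved with these genes. All 6 of its genes had a higher level in platelet-UMI barcodes in every library, 4, 5, 6 and 5 of them past 2-fold, with summed levels 2.10, 3.5, 4.33 and 2.73 times those of the other barcodes. The summed granulocyte markers stood at 1.81, 2.71, 4.08 and 2.42 times and the plasma cell markers at 1.94, 1.58, 3.81 and 2.41 times. The B cell markers stood at 0.55, 0.57, 0.51 and 0.72 times and the natural killer markers at 0.70, 1.43, 0.79 and 0.96 times. In the granulocyte list, 1, 2, 2 and 2 of 5 genes were past 2-fold higher, and its median log2 ratio was -0.51, -0.15, 0.46 and 0.45. In the natural killer list at 2 h, 1 of 6 genes was past 2-fold higher, and the median log2 ratio was -0.27. Several listed platelet genes, among them CD9 and THBS1, are also transcribed by monocytes, and the part of monocyte RNA in the list was not tested on the whole set of barcodes. Within CD14-only barcodes the summed platelet list was 1.09, 1.09, 1.11 and 1.15 times as high with a platelet UMI. Within CD3E-only barcodes it was 1.5 (1.43 to 1.57), 1.53 (1.47 to 1.59), 1.54 (1.47 to 1.61) and 1.45 (1.38 to 1.53) times, and within MS4A1-only barcodes 1.36, 1.28, 1.53 and 1.45 times. Markers of other cells moved within these classes too. In CD3E-only barcodes the summed plasma cell markers stood at 7.20, 0.94, 5.08 and 6.22 times and the monocyte markers at 1.11, 1.56, 7.88 and 3.04 times, and in MS4A1-only barcodes the plasma cell markers at 2.43, 2.21, 2.89 and 2.19 times and the monocyte markers at 6.28, 3.19, 1.00 and 3.0 times. Their part in the result was not tested.

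Among the surface receptors, the defining glycoprotein Ib-IX-V genes were at or near 0. GP1BA and GP1BB had no UMI in platelet-UMI barcodes of any library, GP9 had 1 in all and GP5 had 2 in all. The counts hold no gene named GP6, nor the chemokine genes PF4 and PPBP by name, so these are missing from the platelet list. ITGA2B, the alpha chain of the fibrinogen receptor, stood at 2.53, 2.55, 2.03 and 2.90 CPM against 2.21, 1.76, 1.51 and 2.38 CPM, a difference short of 2-fold.

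ITGB3, the beta chain of that receptor, was past 2-fold in each library, with log2 ratios of 1.68, 2.07, 1.99 and 1.60. In CD3E-only barcodes its log2 ratio was 1.49, 1.55, 0.86 and 1.81. TREML1, a receptor of platelet alpha-granules, was rare, with 34, 31, 8 and 17 UMIs against 20, 26, 26 and 10 in the far more numerous others. Its ratio of CPM was 9.65 (5.40 to 17.7), 9.0 (5.17 to 15.8), 2.90 (1.13 to 6.59) and 6.32 (2.73 to 15.4). SELP, which encodes P-selectin, the adhesion receptor that platelets expose on activation, had 17, 14, 11 and 7 UMIs and a ratio of 4.60 (2.28 to 9.15), 3.52 (1.73 to 6.85), 6.09 (2.58 to 13.8) and 2.89 (0.91 to 8.72), an interval that held 1 at 8 h.

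CD9, a tetraspanin, was past 2-fold in all barcodes, at 745, 456, 392 and 442 CPM against 282, 107, 74.9 and 145 CPM. In CD3E-only barcodes it stood at 46.8, 33.7, 25.9 and 39.5 CPM against 16.7, 11.8, 9.43 and 18.2 CPM, again past 2-fold, on 26, 28, 18 and 22 barcodes with a UMI. TBXA2R, the thromboxane receptor gene, was lower, at 19.3, 17.6, 15.9 and 24.6 CPM against 39.6, 32.9, 28.1 and 35.5 CPM, and in CD3E-only barcodes its log2 ratio was between -0.29 and -0.06.

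Of the granule and secreted products, CLU, the chaperone clusterin, was the clearest. It stood at 11.1, 12.3, 9.78 and 8.09 CPM against 1.38, 1.74, 1.27 and 1.31 CPM, ratios of 8.02 (5.82 to 11.1), 7.09 (5.27 to 9.52), 7.67 (5.24 to 11.2) and 6.16 (3.90 to 9.87). In CD3E-only barcodes the ratios were 16.4 (7.55 to 35.4), 16.1 (9.49 to 27.2), 12.1 (5.88 to 24.2) and 12.4 (5.20 to 29.7), on 10 to 27 barcodes with a UMI.

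VWF, the von Willebrand factor gene, had log2 ratios of 1.75, 2.45, 2.42 and 1.88 over all barcodes, and 0.31, 1.55, 0.72 and -0.69 among CD14-only barcodes. THBS1, thrombospondin 1, had 1.08, 1.79, 2.06 and 1.55 over all barcodes. In CD3E-only barcodes THBS1 had -0.02, -0.62, 4.08 and -0.04, and 79.8% of its 94 UMIs at 4 h came from 1 barcode. F13A1, the A subunit of coagulation factor XIII, had 1.09, 1.84, 1.99 and 1.46 over all barcodes and 1.33, 2.33, 2.01 and 3.05 in CD3E-only ones, on 6, 14, 7 and 13 UMIs.

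The cytoskeletal genes PDLIM1 and FHL1 were past 2-fold in every library. PDLIM1 stood at 18.8, 18.8, 14.2 and 13.1 CPM against 2.98, 2.82, 1.63 and 4.11 CPM, ratios of 6.30 (5.01 to 7.92), 6.65 (5.26 to 8.39), 8.73 (6.32 to 12.1) and 3.20 (2.37 to 4.31). FHL1 stood at 14.6, 16.9, 13.1 and 8.55 CPM against 2.61, 2.20, 1.61 and 3.53 CPM, ratios of 5.59 (4.34 to 7.20), 7.67 (5.94 to 9.91), 8.15 (5.85 to 11.3) and 2.42 (1.70 to 3.43). Both were least in excess at 8 h, where the other barcodes had their highest level.

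MYL9, the myosin regulatory light chain of contractile platelets, was not past 2-fold over all barcodes, with log2 ratios of 0.79, 0.97, 0.60 and 0.70. In CD3E-only barcodes it was, at 1.19, 1.88, 1.18 and 1.46. TLN1, the integrin activator talin, was close to equal in both settings, with log2 ratios of at most 0.25. FLNA, filamin A, and TPM4, a tropomyosin, were past 2-fold in each library over all barcodes, and in CD3E-only barcodes only TPM4 at 4 h was, at 1.17.

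Among the megakaryocyte regulators and enzymes, GNG11, a G protein gamma subunit, had log2 ratios of 1.53, 1.21, 1.62 and 0.81 over all barcodes and 1.87, 1.41, 1.74 and 1.39 in CD3E-only ones. RGS18, a regulator of G protein signalling in platelets, had 0.86, 1.08, 1.05 and 0.37, and 2.19, 1.62, 1.77 and 1.70. Both were thus past 2-fold in every library once only CD3E-only barcodes were compared. GATA1, the transcription factor of megakaryocytes and red cells, rested on 19, 12, 12 and 4 UMIs, with ratios of 3.85 (2.03 to 7.15), 4.31 (1.93 to 9.18), 5.94 (2.63 to 12.9) and 0.74 (0.18 to 2.22), so the 8 h value was not distinguishable from 1. GUCY1B1, a guanylate cyclase subunit, was lower, with log2 ratios of -1.27, -0.58, -0.76 and -1.06, and -0.35, 0.23, -0.20 and -0.55 in CD3E-only barcodes.

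**Figure D4:**
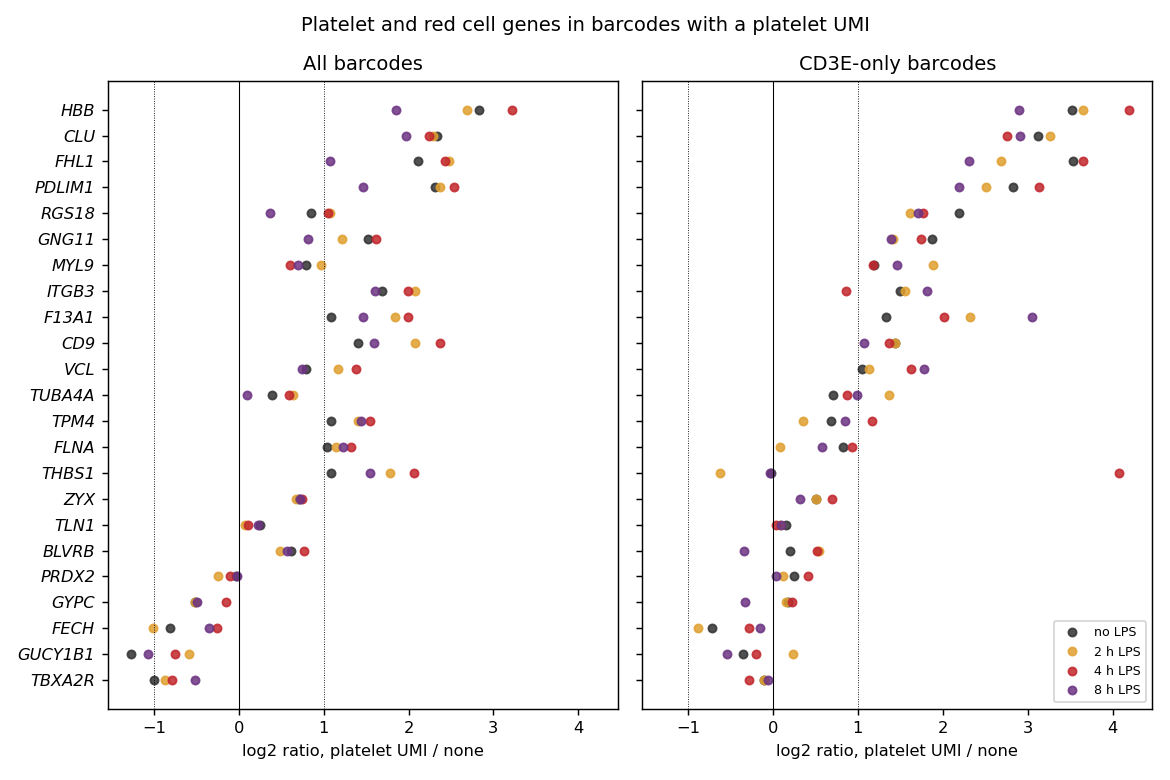
Log2 ratio of CPM (pseudocount 1), barcodes with a platelet UMI over those without, for 23 listed platelet and red cell genes, 1 point per library, over all barcodes (left) and CD3E-only barcodes (right). Dotted lines mark 2-fold. HBB, CLU, FHL1 and PDLIM1 lie past 2-fold in all libraries on both sides, while TLN1, PRDX2 and GYPC lie within 2-fold.

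The CD3E-only comparison held 176, 285, 138 and 106 platelet-UMI barcodes against 3396, 4785, 3852 and 1513 others, with close median depths of 4146, 4260, 5435 and 5527 against 4096, 4120, 4796 and 5318 UMIs. Of 37, 37, 35 and 33 platelet list entries tested there, 13, 14, 13 and 13 were past 2-fold higher, against 2.31%, 1.65%, 5.37% and 3.35% of all genes tested, and the median log2 ratio of all genes lay between -0.03 and 0.00. Red cell genes past 2-fold numbered 1, 1, 2 and 2, HBB in each library and CA2 at 4 h and 8 h.

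The 15 genes with the highest weakest log2 ratio over the 4 libraries in this comparison were taken after their values were seen. HBB, CLU, FHL1, PDLIM1 and RGS18 were among them. SLC40A1, which encodes the iron exporter ferroportin, stood at 18.5, 20.2, 21.6 and 14.0 CPM against 1.18, 0.78, 0.51 and 1.34 CPM, though 63.6% of its 11 UMIs at 8 h came from 1 barcode. LGALSL, a galectin-like gene, stood at 65.3, 43.8, 53.5 and 51.0 CPM against 6.59, 7.54, 5.34 and 7.70 CPM. TAC3, a tachykinin precursor gene, stood at 100.1, 60.7, 100.1 and 66.3 CPM against 10.4, 13.2, 7.02 and 11.4 CPM.

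FXYD4, a regulator of the sodium pump, was spread over 75, 119, 60 and 50 barcodes and had log2 ratios of 2.32, 1.83, 1.88 and 1.65. CALD1, the actin-binding caldesmon, had 2.49, 2.48, 1.80 and 2.62, and LY6G6C, a Ly6 family gene, 3.33, 2.66, 2.12 and 1.89. A pair of genes given by identifier alone, ENSBTAG00000011961 and ENSBTAG00000049782, reached 3.17, 3.53, 3.96 and 2.97 and 3.54, 3.63, 3.18 and 2.88. BCL2L15 and ENSBTAG00000009943 rested on 1 to 7 barcodes, with up to 100% of the UMIs of a library from 1 of them, and are given no ratio.

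Over all barcodes, the 10 genes with the highest weakest log2 ratio were CLU, PDPN, SLC40A1, MEDAG, HBB, TAP, MMP19, VWF, APOBEC3Z1 and CCDC80, with weakest values of 1.97 down to 1.73. They differed in what became of them within a class. CLU, SLC40A1 and HBB had CD3E-only log2 ratios of at least 2.68 in every library. PDPN, the podoplanin gene, had log2 ratios of 1.93, 2.55, 2.90 and 2.05 over all barcodes and 0.77, 0.82, 0.57 and 0.33 in CD14-only ones. TAP, the tracheal antimicrobial peptide gene, had 1.77, 2.00, 2.19 and 2.01 over all barcodes and 1.22, -0.51, -0.79 and -0.07 in CD14-only ones. Within the study's limits on barcodes TAP had 1.39, 1.85, -2.64 and 0.22, and CCDC80 had 0.59, 1.23, 1.92 and -1.2, so both changed direction in 1 library.

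The 5 genes lowest in platelet-UMI barcodes were DAPL1, RHOBTB1, LEF1, GPM6A and ENSBTAG00000039588, of which RHOBTB1 had a log2 ratio of -1.25 at 8 h over all barcodes and 0.035 within those limits. LEF1, a transcription factor of naive T cells, stood at 13, 18.4, 18.4 and 19.7 CPM against 35.4, 41.2, 43.6 and 50.3 CPM, log2 ratios of -1.38, -1.12, -1.2 and -1.31. In CD3E-only barcodes its log2 ratios were -0.31, -0.33, -0.55 and -0.41. T cell markers as a list stood at 0.48, 0.56, 0.60 and 0.59 of their level in the other barcodes.

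Turning to LPS time, the platelet genes were compared first over all barcodes of a library, which no rule had selected. TUBB1 stood at 10.6 (9.81 to 11.5), 10.0 (9.24 to 10.8), 5.70 (5.10 to 6.36) and 10.7 (9.59 to 11.9) CPM. HBB stood at 38.3 (36.7 to 39.9), 38.3 (36.8 to 39.8), 23.3 (22.0 to 24.6) and 35.3 (33.2 to 37.5) CPM. For both genes the 4 h library lay below the others, whose intervals overlapped.

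PDLIM1 had the same low point, at 5.34, 4.69, 2.83 (2.41 to 3.31) and 6.02 CPM, as did FHL1, at 4.41, 3.92, 2.71 (2.30 to 3.18) and 4.60 CPM, and MPIG6B, at 5.62, 5.36, 3.44 (2.97 to 3.96) and 6.28 CPM. CLU stood at 2.83, 2.98, 2.09 (1.73 to 2.50) and 2.75 CPM, with intervals that overlapped between 4 h and both the untreated and the 8 h library. CD9 and VWF were low at 2 h already, with CD9 at 351, 148, 105 and 208 CPM and VWF at 6.74, 2.82, 2.64 and 6.44 CPM. CD14 stood at 658.5, 214, 185 and 332 CPM over the same barcodes. In pooled sums, fewer cells of a kind and less RNA per cell cannot be told apart.

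**Figure D5:**
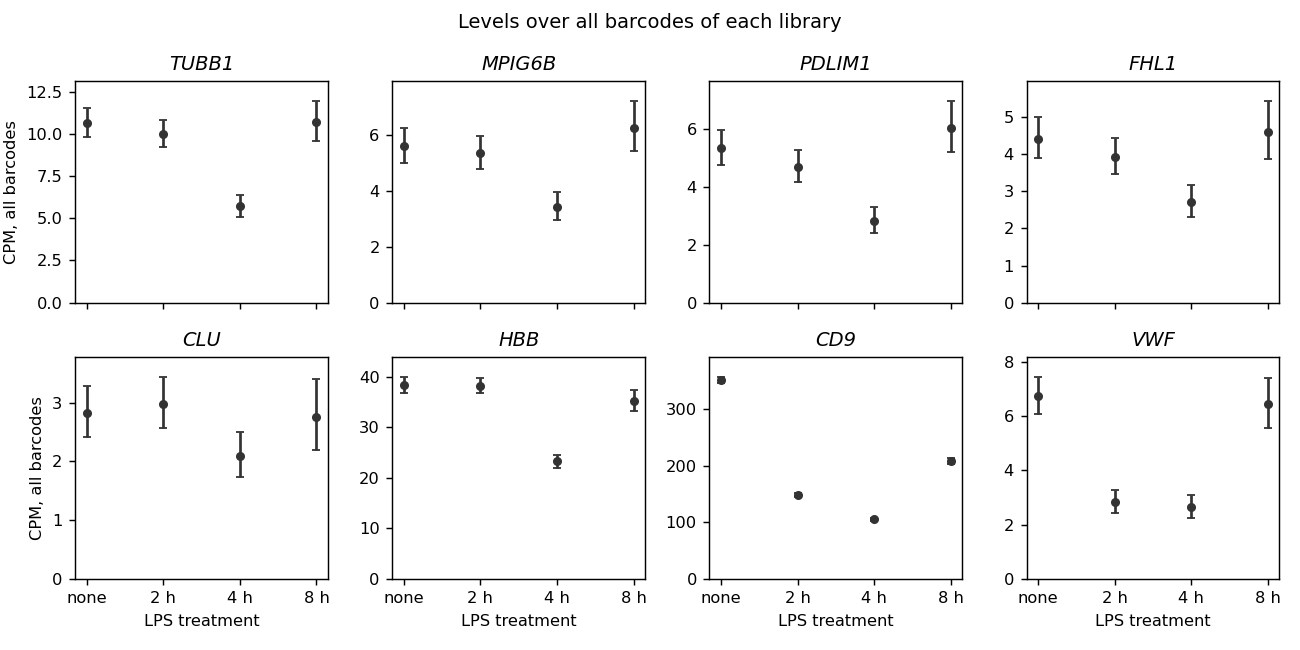
CPM over all barcodes of each library (vertical axes from 0) for 8 genes by LPS treatment, with exact 95% Poisson intervals. TUBB1, MPIG6B, PDLIM1, FHL1 and HBB are lowest at 4 h, with TUBB1 at 5.70 CPM, and CD9 and VWF are low at both 2 h and 4 h.

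Within platelet-UMI barcodes the summed platelet list was lower with LPS. The sum follows the most abundant listed genes, THBS1 among them, and the median gene of the list moved less than the sum. The comparisons of 2 h, 4 h and 8 h share the untreated library. Relative to it, the summed level was 0.57 (0.56 to 0.58), 0.48 (0.47 to 0.49) and 0.64 (0.63 to 0.65), and in the other barcodes it was 0.50, 0.41 and 0.60. The median log2 ratio was -0.14, -0.19 and -0.27, beside -0.06, 0.09 and 0.13 for all genes tested. Of 42, 40 and 41 entries tested, 1, 1 and 1 were past 2-fold higher, where 2.07%, 3.02% and 1.88% of all genes were, and 7, 6 and 1 past 2-fold lower, where 3.69%, 4.00% and 2.00% were. The monocyte list stood at 0.46, 0.41 and 0.51 of its untreated level in the same barcodes.

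TMEM40, a membrane protein gene, was the listed platelet gene past 2-fold higher at 8 h, at 4.88 CPM against 1.27 CPM. F13A1 was lower at all 3 times, at 160 CPM without LPS and 45.4, 17.2 and 35.0 CPM with LPS. At 4 h its log2 ratio was -3.15, beside -4.05 in the other barcodes. THBS1 was lower past 2-fold at 2 h and 4 h, at 3278 CPM without LPS and 1486 and 1046 CPM, and so were TPM1, TPM4, CTTN and TSC22D1, which the tables name under 2 identifiers.

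PDLIM1, CLU, RGS18 and TREML1 were short of 2-fold at each time on the log2 scale with its pseudocount. PDLIM1 had log2 ratios of 0.00, -0.38 and -0.48, and its 8 h ratio had an interval of 0.53 to 0.91. CLU had log2 ratios of 0.15, -0.16 and -0.41, and RGS18 of -0.02, 0.02 and -0.11. TREML1 stood at 3.91, 4.16, 1.48 and 2.59 CPM, with 8 UMIs at 4 h, where its CPM without the pseudocount was past 2-fold lower.

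No red cell gene was past 2-fold in either direction with LPS. The summed list was 1.02 (0.98 to 1.07), 1.09 (1.04 to 1.14) and 0.86 (0.82 to 0.90) times its untreated level, beside 1.12, 1.13 and 0.93 in the other barcodes. HBB had log2 ratios of 0.09, -0.22 and -0.79, and the intervals of its ratio at 4 h (0.78 to 0.95) and 8 h (0.52 to 0.64) lay below 1, while in the other barcodes HBB had 0.22, -0.60 and 0.19. CA2 had 0.22, -0.53 and 0.56.

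The largest increases in platelet-UMI barcodes with LPS were as follows. At 2 h, CCL20, a chemokine of the CCR6 receptor, stood at 1075 CPM against 10.6 CPM, and CD69, an early activation antigen, at 170 CPM against 8.75 CPM. SLAMF1, a lymphocyte surface receptor gene, stood at 143 CPM against 10.5 CPM. In the other barcodes the log2 ratios of CCL20, CD69 and SLAMF1 were 3.56, 2.95 and 2.34, beside 6.54, 4.14 and 3.65. Their levels there were 682 against 56.8 CPM, 162 against 20.0 CPM and 52.8 against 9.67 CPM. Without LPS, CCL20 and CD69 were thus lower in platelet-UMI barcodes than in the others, and 15 of the former had a CCL20 UMI.

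At 4 h, IFIT3 and IFIT1, genes induced by interferon, had log2 ratios of 3.99 and 3.94, beside 4.04 and 3.45 in the other barcodes. All 11 interferon genes tested were higher at each time, with 8, 10 and 4 of them past 2-fold, where 2.07%, 3.02% and 1.88% of all genes were. In the other barcodes all 11 were higher as well, with 6, 10 and 3 past 2-fold. IL17F, a cytokine of type 17 T cells, had the largest increase at 4 h and the next after IL22 at 8 h, yet 1 barcode gave 63.6% of its 409 UMIs at 4 h and 96.1% of its 638 UMIs at 8 h. Single barcodes likewise gave 97.3% of the 520 UMIs of IL22 at 8 h, 88.3% of the 94 of IL9 at 8 h, 91.0% of the 78 of PLAT at 4 h and 75.6% of the 82 of IFNG at 2 h. CCK at 8 h rested on 5 barcodes and ENSBTAG00000047816 at 8 h on 17.

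The largest decreases with LPS were counted in the same way. At 2 h, MMP9, a matrix protease, stood at 4.96 CPM against 61.5 CPM, HMOX1, haem oxygenase 1, at 14.3 against 151 CPM, and AREG, the growth factor amphiregulin, at 35.0 against 282 CPM. HAS2 and ENSBTAG00000049346 completed the 5. The log2 ratios of MMP9, HMOX1 and AREG were -3.39, -3.31 and -2.97, and those in the other barcodes -4.06, -3.09 and -2.57. HAS2 and the unnamed gene had -3.05 and -2.99, beside -2.27 and -3.09 in the other barcodes. At 4 h, CLEC12A, an inhibitory lectin of myeloid cells, stood at 2.95 against 64.1 CPM, CD163, the haemoglobin scavenger receptor, at 1.11 against 24.2 CPM, and DEFB13, a beta-defensin, at 0.92 against 23.6 CPM. The log2 ratios of CLEC12A, CD163 and DEFB13 were -4.04, -3.58 and -3.68, and those in the other barcodes -3.54, -3.42 and -5.85. LPL, lipoprotein lipase, had 0 and 1 UMIs at 4 h and 8 h against 86 without LPS. Its log2 ratios were -3.45 and -3.24, beside -1.52 and -1.68 in the other barcodes.

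At 8 h, SPP1, osteopontin, stood at 5.19 against 177 CPM, NRN1, neuritin, at 11.6 against 129 CPM, and GAL, galanin, at 5.80 against 51.2 CPM. For ENSBTAG00000047632, 96.8% of the untreated UMIs came from 1 barcode. The log2 ratios of SPP1, NRN1 and GAL were -4.85, -3.37 and -2.94, and those in the other barcodes -4.57, -3.19 and -2.32.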

How the data were processed

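Per the labels and the study's methods, the authors aligned reads to ARS-UCD1.2 (bosTau9) with Cell Ranger and deposited raw UMI counts for 21861 genes per barcode. The study's scATAC-seq tables were not used here. Barcodes with at least 200 genes entered. UMIs were summed over barcodes of a group, divided by the group's total to give CPM, and compared as log2 with a pseudocount of 1 CPM where at least 20 UMIs were present, with 2-fold as the call. Thinning used a fixed random seed. Ratios carry exact conditional 95% intervals. Intervals cover counting error only. TMM (edgeR 4.0.16) and DESeq2 1.42.0 size factors served as other scalings, not as tests. Genes named by rule had the 10 highest or 5 lowest weakest ratios over libraries, or the 5 largest rises or falls with LPS (at least 50 UMIs), beside the members of the lists. Ratios were tested on simulated data. The members and lists were chosen with earlier results of these data known, and the CD3E-only comparison and the thinning of markers and rule together were chosen after seeing the data. No genome of the files' build was used, so no coordinates or sequences are given. Some genes are not reported here.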

Additional observations from a re-analysis of the deposited data

Results flagged for a closer look

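The summed level of the 12 inflammatory genes moved in opposite directions at 2 h of LPS: it was 1.26 (1.25 to 1.27) times the untreated level in platelet-UMI barcodes and 0.833 (0.830 to 0.835) times in the other barcodes, from 29420 and 17541 CPM without LPS. CCL2, a monocyte chemoattractant, stood at 5054 against 14151 CPM in platelet-UMI barcodes, and 9 of the 12 genes were past 2-fold higher there, beside 5 of 12 in the other barcodes. The median log2 ratio was above 0 in both, at 1.57 and 0.84. The difference was not tested, since each treatment is 1 library.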

How the results depend on the processing

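With 2 UMIs of TUBB1 and MPIG6B required, the share of barcodes was 1.69%, 1.5%, 1.1% and 2.67% (no LPS, 2 h, 4 h, 8 h). CD14 was then found in 58.7%, 27.6%, 35.2% and 41.7% of them and CD3E in 67.0% at 4 h and 67.0% at 8 h. The share within a class was 0.84%, 1.2%, 0.85% and 1.85% (CD3E only), 0.57%, 0.73%, 0.45% and 1.2% (MS4A1 only), 3.14%, 3.57%, 2.27% and 2.02% (CD14 only) and 0%, 2.04%, 1.11% and 0% (NCR1 only). Genes higher were 508 without LPS, genes lower 1079, 1061, 899 and 496, and genes higher at 8 h of LPS 395. The platelet list ratio was 2.08, 2.35 and 2.65 in the first 3 libraries, and 0.59, 0.52 and 0.62 against no LPS. The red cell list ratio was 1.34, 1.26, 1.30 and 1.2.

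Within the study's limits (at most 3000 genes, under 20% mitochondrial UMIs) the share was 5.45%, 5.62%, 3.25% and 6.77%. CD14 was in 25.8%, 13%, 9.58% and 20.3%, MS4A1 in 24.5%, 21.7% and 32.0% at 2 h, 4 h and 8 h, and NCR1 in 0.43% at 8 h. The red cell list ratio was 1.46, 1.42, 1.51 and 1.55, and against no LPS 1.15 at 4 h and 0.99 at 8 h. The platelet list ratio was 2.06 at 2 h and 1.59 at 8 h, and against no LPS 0.46 at 4 h and 0.45 at 8 h. Genes lower were 424 at 4 h and 403 at 8 h, genes higher 243 at 8 h, and against no LPS 394 were higher and 489 lower at 8 h. Under these limits TAP reversed at 4 h, to a log2 ratio of -2.64, CCDC80 at 8 h, to -1.2, and RHOBTB1 at 8 h, to 0.035; the cause was not tested.

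With TUBB1 alone the share was 4.60%, 4.27%, 2.90% and 6.25%. Thinned to 1000 UMIs it was 1.44%, 1.54%, 0.81% and 1.94%. With the marker alone thinned, CD3E was in 25.0%, 27.7%, 22.8% and 25.3%, MS4A1 in 13.5%, 13.6%, 9.85% and 17.1%, CD14 in 29.7%, 11.6%, 16.6% and 22.4% and NCR1 in 0%, 0.32%, 0.92% and 0%. With the platelet UMI read at 1000 UMIs too, chosen after seeing the data, CD3E was in 29.8%, 37.3%, 24.2% and 29.9%, MS4A1 in 14.0%, 12.4%, 16.1% and 19.4%, CD14 in 24.6%, 4.58%, 4.84% and 11.9% and NCR1 in 0%, 0.65%, 1.61% and 0%. Within classes the share was then 1.39%, 1.97%, 0.70% and 1.61% (CD3E only), 1.28%, 1.03%, 0.78% and 1.57% (MS4A1 only), 2.50%, 1.56%, 1.27% and 0.88% (CD14 only) and 0% without LPS and at 8 h (NCR1 only).

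TMM and DESeq2 scaling moved the median log2 ratio of all genes, platelet-UMI against other barcodes, up by 0.12 to 0.23. Genes higher without LPS became 545 and 580 (304 reported). Genes lower became 133, 39, 151 and 115 under TMM and 124, 38, 149 and 111 under DESeq2 (276, 135, 248 and 184 reported). The higher share of calls was 80.4%, 95.7%, 86.0% and 86.1% under TMM and 82.4%, 95.8%, 86.4% and 86.7% under DESeq2, beside 52.4%, 82.3%, 75.7% and 75.9%. The platelet list ratio was 2.15, 2.59, 2.45 and 2.25 (TMM) and 2.18, 2.62, 2.47 and 2.27 (DESeq2), and the red cell list ratio 1.36, 1.33, 1.29 and 1.25 and 1.39, 1.34, 1.30 and 1.25. Against no LPS, the platelet list was 0.59, 0.45 and 0.58 and 0.59, 0.45 and 0.57, the red cell list 1.01 and 0.77 at 4 h and 8 h under both, and genes higher at 8 h 112 and 107 (189 reported), 30.6% and 29.5% of calls beside 48.5%.

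With a pseudocount of 0.1 CPM, genes higher without LPS were 499 and genes lower 985, 776, 921 and 653. Against no LPS, 557 were lower at 2 h and 458 and 387 higher at 4 h and 8 h. In CD3E-only barcodes genes lower were 547, 330, 491 and 468, and genes higher 169 at 2 h and 314 at 8 h. The platelet list ratio there was 1.5, 1.53, 1.54 and 1.45 and the red cell list ratio 1.60, 1.71, 1.78 and 1.37. Of all results under these alternatives, 1871 stayed within the limits set for no change, 249 moved past them, 100 values of single genes were past 2-fold only under the alternative, 54 only as reported and 3 turned in direction. No paired analysis was possible because each treatment is 1 library. No library could be left out for the same reason. Depth limits NCR1 and the genes named with under 20 UMIs.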
